A study of Mus musculus with 6 samples.

Results

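The genes described here encode the enzymes that build cholesterol and fatty acids, the proteins that sense sterols and switch these enzymes on, and 2 lipid-handling genes under the same control. They are 30 genes chosen by name, and a probe set was assigned to one of them where the array annotation gave it that single symbol. All 30 had a probe set on the array, 70 in total, among 18193 genes with a probe set of a single symbol. RNA came from glomeruli, the filtering units of the kidney, of female mice aged 6 weeks, with 1 Affymetrix array per mouse. The 3 tested mice carried a podocin-Cre transgene that had excised floxed Vhl in podocytes, the epithelial cells that wrap the glomerular capillaries. They had been picked for albumin in the urine at or below the wild-type average. The 3 controls were wild-type littermates; the labels do not say which floxed alleles or transgenes they carried. Bead-isolated glomeruli also hold endothelial, mesangial and other cells in which this Cre is not expected to act, so the arrays average over deleted and intact cells.

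Cholesterol is made from acetyl-CoA through mevalonate and squalene, and fatty acids through malonyl-CoA. When sterols are scarce in the endoplasmic reticulum, the escort protein Scap carries the SREBP factors (encoded by Srebf1 and Srebf2) to the Golgi, where they are cleaved and released to activate most of these genes; the Insig proteins hold Scap back when sterols are plentiful. Several of these steps consume molecular oxygen. VHL targets HIF, the hypoxia-inducible factor, for breakdown, and HIF is known to activate Insig2 in mouse liver and Lpin1 in human liver cells.

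The deleted gene and the arrays were checked first. Vhl had signals of 611, 619 and 606 in Vhl-deleted arrays, against 809, 665 and 707 in wild-type arrays, a log2 change of -0.23 that did not pass (limma adjusted p = 0.944). Whether its probe set lies in the excised part of the gene is not stated, so it may check nothing. Egln3, a known HIF target, was higher by 4.63 on the log2 scale (limma adjusted p = 9.74e-05), the highest change of all genes tested. It was picked because its large change was known from earlier results of these data, so it is no independent check of the deletion. Podocyte markers were present throughout: the summed signal of the 12 measured of 15 listed ranged over 93710 to 112200 in Vhl-deleted arrays and 106300 to 135200 in wild-type arrays. Of these markers 10 of 12 had a change below 0, with a median of -0.26. The 9 measured mesangial and smooth muscle markers summed to 52010 to 54980 in Vhl-deleted arrays, against 42260 to 50030 in wild-type arrays, with 8 above 0. By limma 0 markers of either list passed, and the part of these cells in the members' values was not tested. One control array stood apart. Proximal tubule markers, 15 of 17 listed, summed to signals of 93330 to 157300 in Vhl-deleted arrays, against 103000, 128500 and 30140 in wild-type replicates 1, 2 and 3. All 15 had a change above 0, with a median of 0.51, and 0 passed. Values without that array are therefore also given for most members, and the plot of changes shows all 30 both ways.

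None of the 30 genes differed between Vhl-deleted and wild-type glomeruli after adjustment over all genes: 0 passed a limma adjusted p of 0.05, where 0.0807% of the 11159 genes tested did. All 30 passed the filter on dim probe sets. At an unadjusted p under 0.05 there was 1 member, Sqle, where 4.92% of all genes had such a p. The lowest adjusted p among the members was 0.944. The log2 changes, Vhl-deleted minus wild-type, of signal + 28 ran from -0.50 (Dhcr7) to 0.75 (Sqle), with 21 of 30 above 0, where 50.9% of all genes were. Their median was 0.14, against 0.00 over all genes tested. Without wild-type replicate 3 the median was 0.04, with 19 of 30 above 0. The groups did not overlap in 4 members: Sqle and Srebf1 were higher in all Vhl-deleted arrays, and Dhcr7 and Scd2 lower in all of them. Over all genes tested, 5.04% lay wholly higher and 5.63% wholly lower, so 2 of 30 in each direction is near the background. Because whole glomeruli were measured, fewer cells of a type and less RNA per cell cannot be told apart in any of these values.

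**Figure D1:**
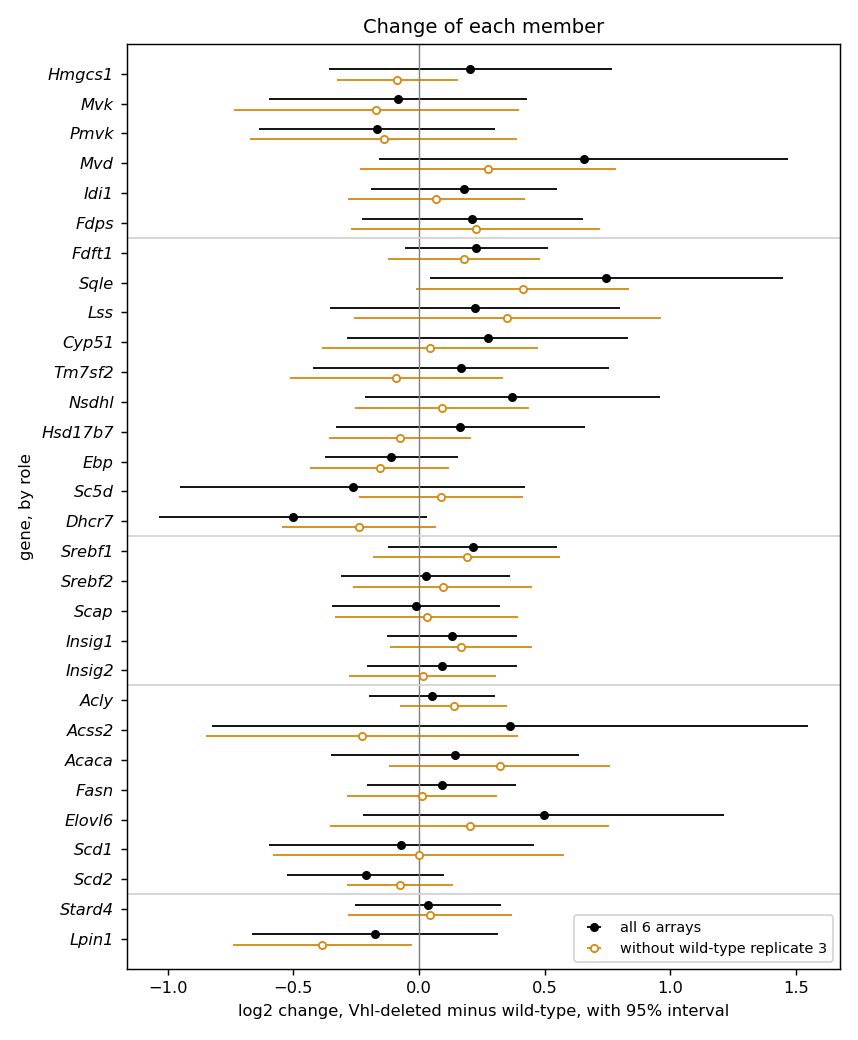
Log2 change of each of the 30 members, Vhl-deleted minus wild-type, on the x axis, with its 95% interval from limma, by role from top to bottom. Black points use all 6 arrays and open orange points leave out wild-type replicate 3. With all arrays the points run from -0.50 for Dhcr7 to 0.75 for Sqle, and the Sqle interval alone stays clear of 0.

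The 6 enzymes of the mevalonate branch, from acetyl-CoA to farnesyl diphosphate, had a median change of 0.19, with 4 above 0. Their median was -0.01, with 3 above 0, without wild-type replicate 3. Hmgcs1, the synthase that condenses acetyl units into HMG-CoA, had signals of 7002, 6707 and 7719 in Vhl-deleted arrays, against 7793, 7362 and 4120 in wild-type arrays. Wild-type replicate 3 was thus far below the other 5 arrays, which overlapped. The change of Hmgcs1 was 0.20 (95% interval -0.36 to 0.77), and -0.09 without that array (-0.33 to 0.15). Its per-array values are given although the rule for named genes did not pick it, a choice made after they were seen. Mvd, the decarboxylase that makes isopentenyl diphosphate, had signals of 269, 201 and 255 in Vhl-deleted arrays, against 233, 161 and 72.5 in wild-type arrays. Its groups overlapped through wild-type replicate 1. Its change was 0.65 (SE 0.34, limma adjusted p = 0.944), and 0.27 without wild-type replicate 3. A second Mvd probe set changed by 0.29. Fdps, the farnesyl diphosphate synthase, had signals of 865, 762 and 764 in Vhl-deleted arrays, against 871, 524 and 696 in wild-type arrays. Here wild-type replicate 2 was the lowest array, and the change was 0.21 (interval -0.23 to 0.65), and 0.03 without wild-type replicate 2. The change of Fdps was 0.23 without wild-type replicate 3 and 0.38 without wild-type replicate 1. The isomerase Idi1 was at 0.18, and the kinases Mvk and Pmvk at -0.08 and -0.17. Idi1 was at 0.07, Mvk at -0.17 and Pmvk at -0.14 without wild-type replicate 3. The other probe set of Mvk was at 0.38, opposite in sign.

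The 10 enzymes from squalene to cholesterol had a median change of 0.20, with 7 above 0, and of 0.07, with 6 above 0, without wild-type replicate 3. Sqle, the squalene epoxidase that commits squalene to sterols, had signals of 891, 956 and 1259 in Vhl-deleted arrays, against 851, 683 and 367 in wild-type arrays. Every Vhl-deleted array lay above every wild-type array, by a narrow margin between Vhl-deleted replicate 1 and wild-type replicate 1. The mean was 1035 ± 196 in Vhl-deleted and 634 ± 246 in wild-type arrays (SD, n = 3 each), a change of 0.75 (SE 0.30, 95% interval 0.04 to 1.45, limma adjusted p = 0.944). Without wild-type replicate 3 the change was 0.41 (-0.01 to 0.84), and with the tubule marker mean of each array as a covariate it was 0.48 (0.13 to 0.83, adjusted p = 0.490). Vhl-deleted replicate 3 had the highest Sqle signal and the highest summed tubule marker signal. With that array left out the change of Sqle was 0.60 (-0.23 to 1.43). Sqle did not pass in any setting tried.

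Dhcr7, the reductase of the last step to cholesterol, ran the other way. Its signals were 363, 366 and 393 in Vhl-deleted arrays, against 438, 454 and 791 in wild-type arrays. The groups did not overlap, and wild-type replicate 3 was the highest array by a wide margin. The change was -0.50 (SE 0.23, interval -1.03 to 0.03), and -0.24 without that array (-0.55 to 0.07). Fdft1, squalene synthase, had signals of 863, 838 and 886 in Vhl-deleted arrays, against 838, 686 and 680 in wild-type arrays, a change of 0.23 (-0.05 to 0.51). Only wild-type replicate 1 reached the Vhl-deleted values. Without wild-type replicate 3 the change of Fdft1 was 0.18 (-0.12 to 0.48). Its other kept probe set changed by 0.09, with wild-type replicate 1 the highest array at 574. Nsdhl, a sterol dehydrogenase of the demethylation steps, had signals of 1357, 1368 and 1788 in Vhl-deleted arrays, against 1363, 1435 and 768 in wild-type arrays. The groups overlapped apart from the high Vhl-deleted replicate 3 and the low wild-type replicate 3, and the change of 0.37 was 0.09 with wild-type replicate 3 left out. Of the remaining enzymes, the lanosterol demethylase Cyp51 was at 0.27, lanosterol synthase Lss at 0.22, the sterol reductase Tm7sf2 at 0.17, the ketosteroid reductase Hsd17b7 at 0.16, the isomerase Ebp at -0.11 and the desaturase Sc5d at -0.26. Without wild-type replicate 3, Cyp51 was at 0.04, Lss at 0.35, Tm7sf2 at -0.09, Hsd17b7 at -0.08, Ebp at -0.16 and Sc5d at 0.09. The second kept probe set of Lss was at -0.19, and the other 2 of Sc5d at 0.12 and -0.12.

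**Figure D2:**
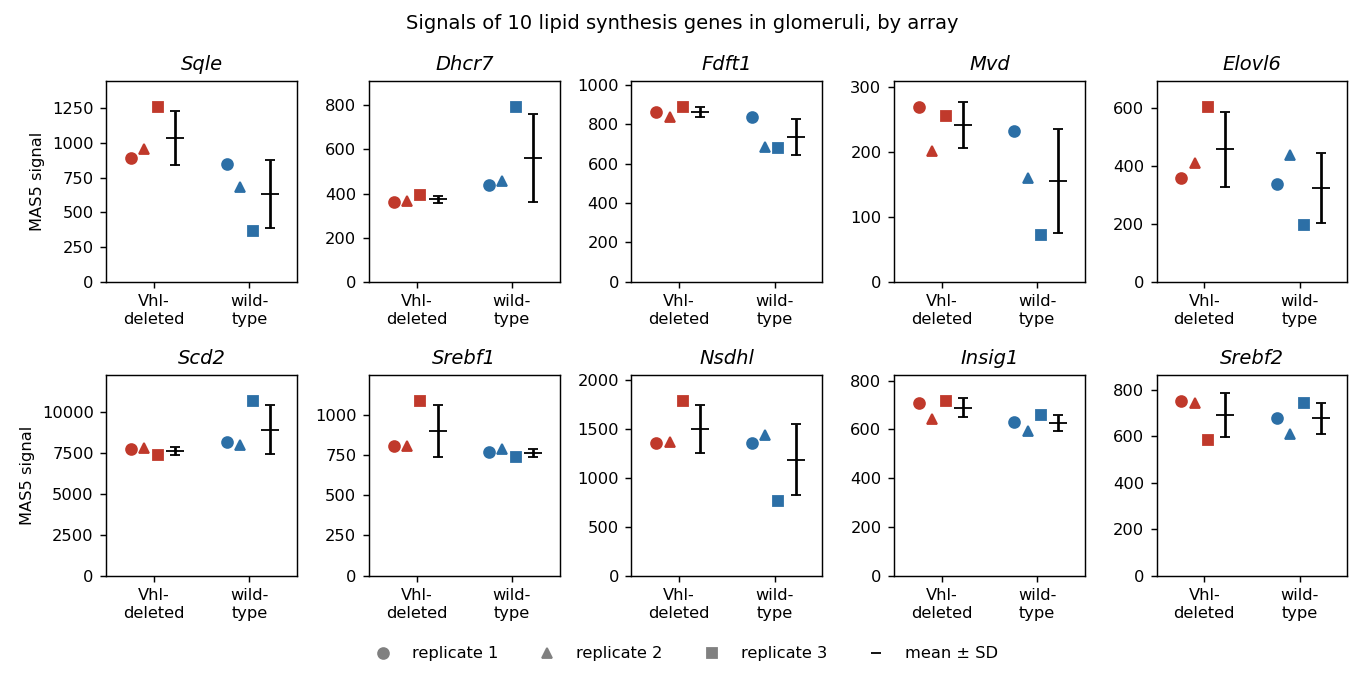
MAS5 signal on the y axis in each array for the 8 members of lowest unadjusted p and 2 further regulators, Vhl-deleted on the left and wild-type on the right of each panel. Marker shapes give the replicate number and the black bars the mean ± SD of 3 arrays. Sqle and Srebf1 lie higher, and Dhcr7 and Scd2 lower, in every Vhl-deleted array, and wild-type replicate 3 is at the wild-type extreme in most panels.

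The 5 regulators had a median change of 0.09, with 4 above 0, and of 0.09, with 5 above 0, without wild-type replicate 3. Of their 5 intervals, 4 lay within 0.5 of 0 on the log2 scale. Such an interval was found for 8 of the 30 members and 5230 of the 11159 genes tested. Srebf1, which encodes the SREBP factor tied mainly to fatty acid synthesis, had signals of 808, 806 and 1086 in Vhl-deleted arrays, against 772, 785 and 738 in wild-type arrays. The groups did not overlap, but the gap was small except in Vhl-deleted replicate 3. Its change was 0.21 (interval -0.12 to 0.55), and 0.08 without Vhl-deleted replicate 3. Srebf2, which encodes the factor tied mainly to cholesterol synthesis, had signals of 753, 744 and 585 in Vhl-deleted arrays, against 678, 612 and 746 in wild-type arrays, a change of 0.03 (-0.31 to 0.36). The groups overlapped fully, and its other probe set was at -0.18. Scap had signals of 1026, 1052 and 1391 in Vhl-deleted arrays, against 1138, 1102 and 1227 in wild-type arrays, a change of -0.01 (-0.35 to 0.32). The Vhl-deleted arrays spanned the wild-type range on both sides.

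Insig1, itself an SREBP target and often read as a gauge of SREBP activity, had signals of 709, 644 and 717 in Vhl-deleted arrays, against 629, 594 and 659 in wild-type arrays. The overlap was a single crossing, of Vhl-deleted replicate 2 below wild-type replicate 3, and the change was 0.13 (interval -0.13 to 0.39). Insig2, the HIF-responsive form in mouse liver, had signals of 1783, 1598 and 1508 in Vhl-deleted arrays, against 1731, 1496 and 1364 in wild-type arrays. Its groups overlapped, with a change of 0.09 (-0.21 to 0.39), and 0.07 and -0.01 for its other probe sets.

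The 7 genes of fatty acid synthesis had a median change of 0.09, with 5 above 0. Their median was 0.01, with 4 above 0, without wild-type replicate 3. Elovl6, which extends palmitate to stearate, had signals of 360, 410 and 604 in Vhl-deleted arrays, against 338, 438 and 196 in wild-type arrays. The highest array was Vhl-deleted replicate 3 and the lowest wild-type replicate 3, with the other 4 interleaved. The change was 0.50 (interval -0.22 to 1.21), and 0.20 without wild-type replicate 3. Acss2, which makes acetyl-CoA from acetate, had the largest SE of the members (0.50). Its signals were 1387, 1329 and 2402 in Vhl-deleted arrays, against 1703, 2185 and 545 in wild-type arrays. Both extremes were again replicate 3 arrays, the change was 0.36 (-0.82 to 1.55), and it turned to -0.23 without wild-type replicate 3 and to -0.15 with the tubule covariate.

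Scd2, one of the stearoyl-CoA desaturases that make monounsaturated fatty acids, had signals of 7730, 7803 and 7349 in Vhl-deleted arrays, against 8135, 7954 and 10669 in wild-type arrays. The groups did not overlap, by a small margin outside wild-type replicate 3. Its change was -0.21 (interval -0.53 to 0.10), and -0.08 without that array, and its other 2 probe sets were at -0.45 and -0.46. Its paralog Scd1 was at -0.07 (-0.60 to 0.46). Fasn, the fatty acid synthase, was at 0.09 (-0.21 to 0.39), the ATP citrate lyase gene Acly at 0.05 (-0.20 to 0.30) and the acetyl-CoA carboxylase gene Acaca at 0.14 (-0.35 to 0.64). Without wild-type replicate 3, Fasn was at 0.01, Acly at 0.14 and Acaca at 0.32. The interval lay within a change of 1 on the log2 scale in either direction for 5 of these 7 genes, for 25 of the 30 members and for 88.4% of all genes tested. The 5 members whose interval reached further were Sqle, Dhcr7, Mvd, Elovl6 and Acss2.

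Of the 2 lipid-handling genes, Lpin1 encodes a phosphatidate phosphatase of triglyceride synthesis. It had signals of 567, 740 and 660 in Vhl-deleted arrays, against 797, 928 and 546 in wild-type arrays, a change of -0.17 (interval -0.66 to 0.31). With wild-type replicate 3, the lowest array, left out, the change was -0.38 (-0.74 to -0.03, limma adjusted p = 0.958). In that fit 1 of 30 members and 557 of the 11159 genes tested had an unadjusted limma p under 0.05. The other kept probe set of Lpin1 changed by -0.30 with all arrays. Its signals overlapped, at 248, 415 and 451 in Vhl-deleted arrays, against 440, 479 and 432 in wild-type arrays. Stard4, a sterol carrier protein, had signals of 811, 880 and 1015 in Vhl-deleted arrays, against 928, 816 and 888 in wild-type arrays. Its groups overlapped and the change was 0.03 (-0.26 to 0.33).

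Among arrays, the members varied most in 1 control. Wild-type replicate 3 was the lowest of the 6 arrays in 15 of 30 members, where it was lowest in 27.5% of all genes tested, and the highest in 5, where it was highest in 31.2%. The 15 were Hmgcs1, Mvd, Idi1, Fdft1, Sqle, Cyp51, Tm7sf2, Nsdhl, Hsd17b7, Srebf1, Insig2, Acss2, Fasn, Elovl6 and Lpin1, and the 5 were Sc5d, Dhcr7, Acly, Acaca and Scd2. By role it was lowest in 3 of 6 mevalonate enzymes and in 6 of 10 enzymes from squalene on. The median deviation of the enzymes from squalene on, from each gene's mean, was 0.13, -0.08 and 0.12 in Vhl-deleted arrays, against 0.10, 0.04 and -0.39 in wild-type replicates 1, 2 and 3. Proximal tubule markers deviated by a median of -1.53 in the same array, podocyte markers by 0.41 and leukocyte markers by -0.53. Leukocyte markers had a median change of 0.51, with 5 of 6 tested above 0 and 0 called, and their part in the members' values was not tested.

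Spread within the wild-type group was wider with wild-type replicate 3 included than between wild-type replicates 1 and 2. The median SD of the members on the log2 scale was 0.19 in Vhl-deleted and 0.30 in wild-type arrays, and 0.12 between wild-type replicates 1 and 2 alone; over all genes tested these were 0.16, 0.19 and 0.10. The SD between wild-type replicates 1 and 2 rests on 2 values rather than 3, which by itself tends to lower its median. Other pairs of arrays were not compared. The SD was larger in wild-type arrays in 22 of 30 members, and in 6707 of the 11159 genes tested. With the tubule marker mean as a covariate the median change of the members was 0.04 and 0 passed, with 1 at an unadjusted p under 0.05, again Sqle, where 759 of the 11159 genes tested had such a p in that fit. Adipocyte markers, whose cells make much fatty acid, were near 0: the summed signal of 5 such markers was 66.7 to 85.8 in Vhl-deleted and 69.7 to 74.1 in wild-type arrays, and no Adipoq signal exceeded 21.4. Summed signals of the 7 adrenal cortex markers, whose cells use cholesterol for steroids, were 206 to 325 in Vhl-deleted and 230 to 300.2 in wild-type arrays.

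**Figure D3:**
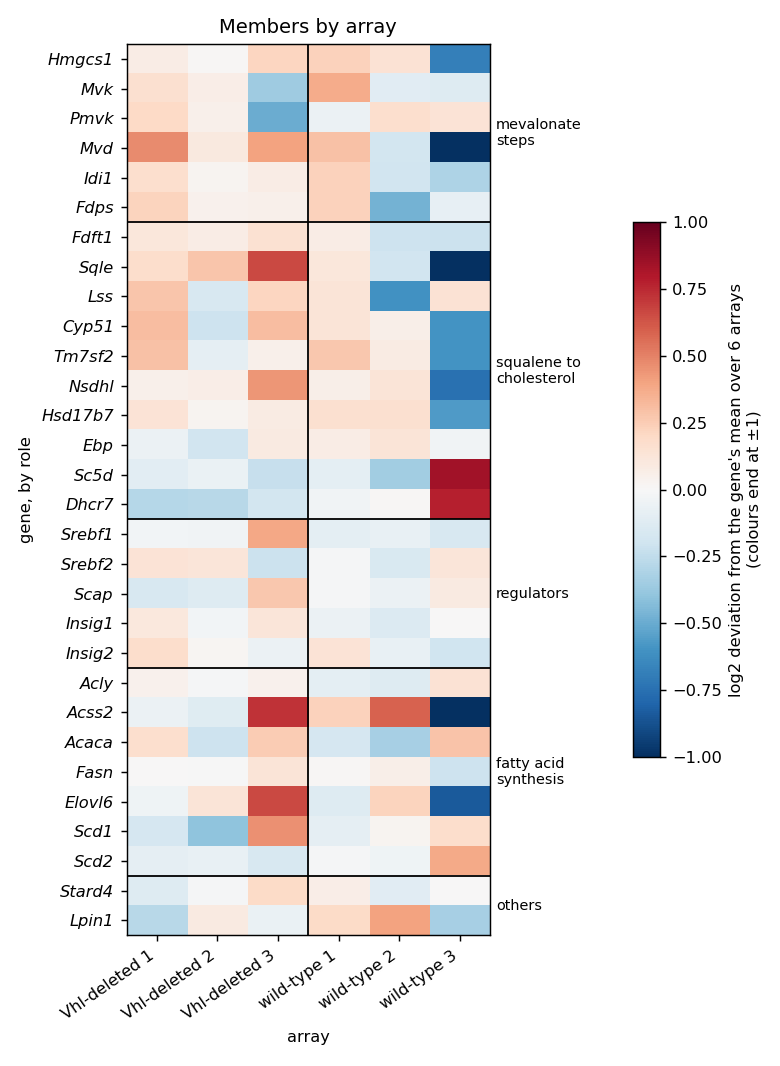
Log2 deviation of each member (rows, by role) from its mean over the 6 arrays (columns, Vhl-deleted left of the line), red above and blue below the mean, with colours ending at ±1. The wild-type replicate 3 column holds the lowest value in 15 of the 30 rows and the highest in 5.

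**Figure D4:**
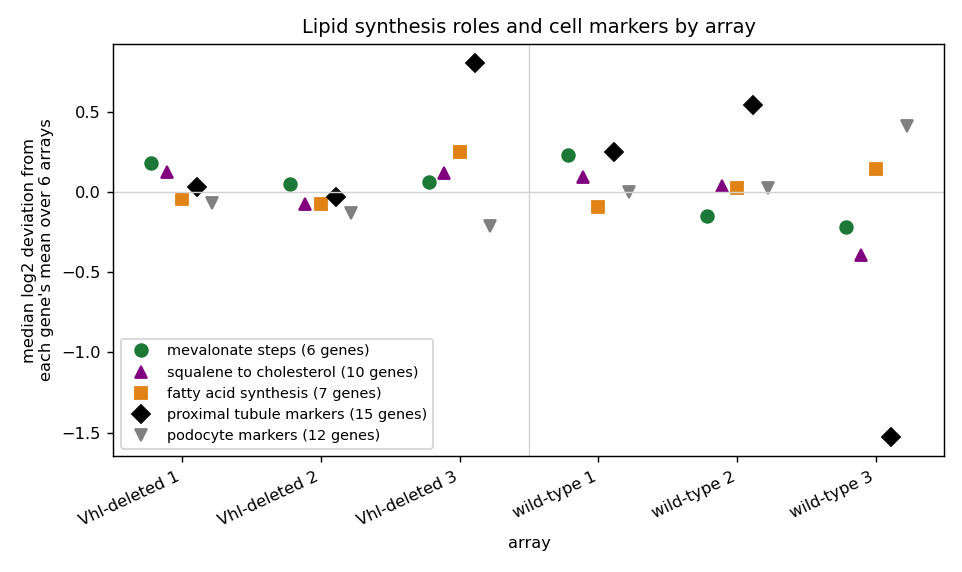
Median log2 deviation from each gene's mean over 6 arrays (y axis) in each array (x axis) for 3 roles of the members and 2 marker lists. In wild-type replicate 3 the enzymes from squalene to cholesterol are at -0.39 and the proximal tubule markers at -1.53, while podocyte markers are at 0.41 and fatty acid synthesis genes at 0.15.

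A list of further pathway genes held other enzymes and targets of these pathways, SREBP proteases, and genes of cholesterol uptake, efflux and storage. Of 34 listed, 25 were tested and 2 lay below the filter, and the rest were not analysed here. By limma 0 of 25 passed, and 0 had an unadjusted p under 0.05. Their median change was 0.08, with 16 above 0, and -0.03 with 11 above 0 without wild-type replicate 3. The 5 of lowest p were Ggps1, a prenyl diphosphate synthase (-0.25), the phosphatidate phosphatase Lpin2 (-0.19), the lipogenic factor Thrsp (-0.45), the cholesterol exporter Abcg1 (0.22) and malic enzyme Me1 (0.69, interval -0.45 to 1.83), each with an adjusted p of 0.944. Without wild-type replicate 3 these were at -0.10, -0.10, -0.14, 0.30 and 0.15. That array was the lowest in 10 and the highest in 8 of the 25 genes, against 15 and 5 of the 30 members.

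Promoter sequence was read for what the members share beyond function. RefSeq promoter windows of build GRCm38.p6, 250 bases before to 50 after a gene start, were found for 24 members; Sqle, Fdft1, Fdps, Scd1, Scd2 and Stard4 had none. The searched motifs were the sterol regulatory element TCACNCCAC bound by SREBP, the box CCAAT bound by NF-Y, a factor known to act with SREBP, and the E-box CACGTG, on both strands. The ends of different motifs can overlap, but no 2 different motifs did so in the members' windows. CCAAT stood in 20 of 24 members (83.3%), against 41.1% of the 27025 genes with a window, and in 65.6% of the members' 32 windows, against 37.4% of all windows. CACGTG stood in 5 members (Hsd17b7, Sc5d, Dhcr7, Scap and Insig1), against 8.09% of all genes. The strict sterol regulatory element was found in Hmgcs1 alone, against 1.44% of all genes; other spellings of the element were not searched. These matches are descriptions and were not tested. The windows below show Hmgcs1 and Nsdhl, which were lowest in wild-type replicate 3, Dhcr7, which was highest there, and the regulator Insig1, which was neither. Bases are 5′ to 3′ on the gene's strand, and capitals mark motif matches on either strand. They lie at chr13:119690101-119690400, chrX:72918271-72918570, chr7:143829964-143830263 and chr5:28071162-28071461, all on the plus strand.
Hmgcs1: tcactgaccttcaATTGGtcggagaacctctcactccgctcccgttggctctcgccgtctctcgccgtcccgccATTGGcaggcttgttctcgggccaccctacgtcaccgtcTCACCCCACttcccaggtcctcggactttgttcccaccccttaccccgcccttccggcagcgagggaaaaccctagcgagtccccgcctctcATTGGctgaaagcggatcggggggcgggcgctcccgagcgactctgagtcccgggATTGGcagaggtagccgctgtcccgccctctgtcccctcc
Nsdhl: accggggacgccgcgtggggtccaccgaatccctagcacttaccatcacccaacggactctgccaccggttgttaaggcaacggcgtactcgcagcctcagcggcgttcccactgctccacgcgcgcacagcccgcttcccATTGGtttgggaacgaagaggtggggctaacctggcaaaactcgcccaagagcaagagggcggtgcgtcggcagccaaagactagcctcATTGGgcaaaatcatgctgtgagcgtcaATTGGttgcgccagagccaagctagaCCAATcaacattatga
Dhcr7: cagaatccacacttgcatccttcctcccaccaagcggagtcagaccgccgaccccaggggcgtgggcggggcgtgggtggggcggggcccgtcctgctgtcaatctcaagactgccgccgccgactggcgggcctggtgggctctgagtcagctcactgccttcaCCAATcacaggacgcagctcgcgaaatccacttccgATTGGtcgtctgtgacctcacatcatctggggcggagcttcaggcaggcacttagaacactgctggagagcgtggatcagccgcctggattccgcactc
Insig1: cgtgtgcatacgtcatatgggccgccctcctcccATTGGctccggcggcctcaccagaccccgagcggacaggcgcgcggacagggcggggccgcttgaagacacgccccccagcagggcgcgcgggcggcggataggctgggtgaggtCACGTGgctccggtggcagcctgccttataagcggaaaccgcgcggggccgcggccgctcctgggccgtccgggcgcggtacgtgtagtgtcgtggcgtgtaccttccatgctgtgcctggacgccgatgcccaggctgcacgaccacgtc

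Hmgcs1 held the sterol regulatory element centred 133 bases before its start and 4 NF-Y boxes. Nsdhl held 4 NF-Y boxes, Dhcr7 held 2 in the window shown (its other 2 windows held 1 E-box between them), and Insig1 held 1 NF-Y box and 1 E-box. Each window shown held an NF-Y box, as did 20 of the 24 members with a window, and the windows were picked for display. Any relation of the motifs to the array values was not tested.

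**Figure D5:**
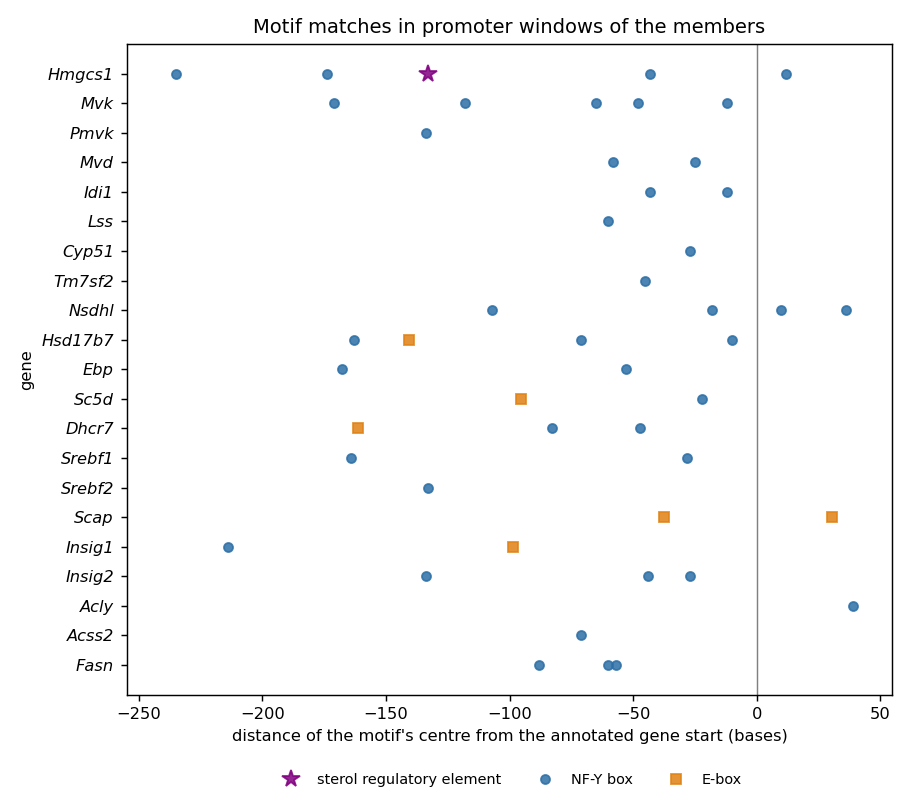
Motif matches in the promoter windows of the 21 members with a match, by distance of the motif's centre from the annotated gene start (x axis, bases, negative before the start); genes with several windows have all of them on 1 line. NF-Y boxes (circles) occur in 20 members, E-boxes (squares) in 5, and the star marks the sterol regulatory element of Hmgcs1.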

How the data were processed

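The deposited values were linear intensities, the MAS5 signal of each probe set on each array; MAS5 is named in the submitters' processing notes without a version. The authors' scaling shows in the values, whose mean without the lowest and highest 2% was 500.0 in all 6 arrays. Detection calls were not used here. Median signals were 94.6 to 107.5, and precision is limited by there being 3 arrays a group. Probe sets with 1 symbol in the array annotation (34945 of 45101) were used, and 34741 matched a RefSeq gene by Entrez number.

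Signals were taken as log2(signal + 28), 28 being the 25th percentile of all values, which understates changes of dim genes. Probe sets in the upper 50% by mean log2 value, about a signal of 96.4, were kept, and a gene was read from its brightest one. The test was limma's (version 3.58.1, R 4.3.3; lmFit, then eBayes with its trend option, 7.08 total degrees of freedom), Benjamini-Hochberg adjusted over 11159 genes, with a threshold of 0.05. The fit was tested on simulated data. Labels call the arrays biological replicates.

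The members, lists and tests were chosen with earlier results of these data known. By the rule for named genes, values in every array are given for the 8 members of lowest p, the 5 regulators and the 2 largest changes of each role, and 5 further pathway genes are named. Of 18 members with several kept probe sets, 8 had changes of both signs (Acly, Insig2, Lss, Mvk, Sc5d, Scd1, Srebf2 and Stard4).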

Additional observations from a re-analysis of the deposited data

How the results depend on the processing

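Under 19 alternatives of scaling, pseudocount, filter, probe set choice, variance model, array weights, replicate block, tubule covariate and arrays left out, 0 members and 0 further pathway genes passed in each, and 530 of 565 member values kept their direction. That share includes settings in which a member's value could not move: the filters, the test of each probe set, the variance models and the replicate block. All turned signs came from the other settings. The lowest adjusted p of any member was 0.490. The median change of the members was 0.042 with the tubule covariate and 0.044 (without wild-type replicate 3) to 0.186 (without Vhl-deleted replicate 2) with 1 array left out. The number of genes called was 14 with a pseudocount of 64, 33 with array weights, 36 with the tubule covariate, 1 with the replicate block and 1 to 12 with 1 array left out, against 9; it was 1 without Vhl-deleted replicate 1, 4 without Vhl-deleted replicate 2 and 5 without wild-type replicate 2. Same-numbered arrays deviated with correlations of -0.02, -0.41 and -0.51, so no pairing by number was seen. The correlations cannot exclude it, because tubule markers deviated in opposite directions in the replicate 3 arrays (0.81 in Vhl-deleted, -1.53 in wild-type). The replicate block changed no call of a member.

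The sign turned in 13 members, none of them called. With array weights, Hmgcs1 was at -0.052, Pmvk at 0.028, Hsd17b7 at -0.0032, Sc5d at 0.015, Acss2 at -0.23 and Stard4 at -0.044. With the tubule covariate, Hmgcs1 was at -0.014, Tm7sf2 at -0.0020, Hsd17b7 at -0.0048, Sc5d at 0.0069 and Acss2 at -0.15. With median scaling, Srebf2 was at -0.036, Acly at -0.012 and Stard4 at -0.027; with quantile normalization Scap was at 0.0094. With the mean over probe sets, Mvk was at 0.15 and Srebf2 at -0.077. With 1 array left out the ranges were -0.087 to 0.37 for Hmgcs1, -0.19 to 0.079 for Mvk, -0.31 to 0.039 for Pmvk, -0.025 to 0.36 for Lss, -0.090 to 0.35 for Tm7sf2, -0.077 to 0.29 for Hsd17b7, -0.50 to 0.089 for Sc5d, -0.043 to 0.14 for Srebf2, -0.15 to 0.066 for Scap, -0.23 to 0.75 for Acss2, -0.32 to 0.11 for Scd1 and -0.051 to 0.11 for Stard4. The cause was not tested. Low signal limits few members: all 30 passed the filter, though Mvd in wild-type replicate 3, at 72.5, lay below its level of 96.4.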
